A study of Mus musculus with 2 samples.

Results

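The 9 genes described here are Abca1, Abcg1, Apoe, Nr1h2, Nr1h3, Mylip, Lpl, Plin2 and Soat1, which move cholesterol out of a macrophage, sense its oxidised forms, or store it as ester in droplets. They were chosen by symbol, and all 9 were found among the 55536 genes of the deposited tables. PolyA-selected RNA came from macrophages grown from the bone marrow of C57BL/6J mice, as 2 biological replicates of a single group. Lipid A, the part of lipopolysaccharide that Toll-like receptor 4 senses, was given at 100 ng/ml for 12 h, withdrawn for 12 h and given again at 100 ng/ml for 300 min before harvest. Another field of the labels gives a protein, lipoprotein A, as the agent, and which of the names is right is not known. Sex and age were not collected, and both replicates carry 1 donor identifier, so their spread may be smaller than that between animals. No untreated or singly exposed culture was analysed here, so the levels below are those of re-exposed macrophages and no response to Lipid A was tested.

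Macrophages take up cholesterol from lipoproteins and dead cells and cannot break its ring system down. Surplus sterol is either esterified and stored in lipid droplets or handed across the plasma membrane to apolipoproteins and high-density lipoprotein. Oxysterols made from cholesterol switch on the liver X receptors, which act with a retinoid X receptor partner and raise transcription of the exporters, of apolipoprotein E and of Mylip, whose product is a ubiquitin ligase that limits lipoprotein uptake. Cells that store much ester are the foam cells of atherosclerotic plaques.

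Replicate 1 held 50503159 expected counts over genes, and replicate 2 held 46342331. All 13 macrophage markers stood at 10 TPM (a transcript level scaled to length and to the library total) or more in both libraries, with a summed level of 28737 TPM in replicate 1 and 29203 TPM in replicate 2. The 6 adipocyte markers, cells that also hold droplets and Lpl, summed to 0.14 and 0 TPM, with Adipoq, Plin1, Cidec, Lep and Cfd at 0 counts in both libraries. Other lists summed to 2.36 and 2.46 TPM for fibroblasts and stroma, 1.03 and 1.05 TPM for dendritic cells, 0.93 and 0.06 TPM for T, B and NK cells, and 0.68 and 0.55 TPM for erythroid cells and megakaryocytes, in replicates 1 and 2. The 10 neutrophil markers summed to 67.9 TPM in replicate 1 and 4.46 TPM in replicate 2, mostly S100a8 and S100a9. Ngp had 172 counts in replicate 1 and 2 in replicate 2, and Ltf had 52 and 1. Camp was nearly even, at 11 and 9 counts, and Ly6g and Retnlg had 0 counts in both. The 5 endothelial markers summed to 15.7 TPM in replicate 1 and 49.3 TPM in replicate 2, of which Kdr made up 11.0 and 41.6 TPM and Vwf 1.35 and 4.56 TPM, while Cdh5 was at 1.38 and 0.87 TPM. The libraries differed by more than counting noise, with a chi-square of 69.8 per degree of freedom over 14305 genes, and were kept as 2 samples.

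All 9 members reached 10 TPM in both libraries, a level reached by 27.3% of protein-coding genes and 11.2% of all genes. Of the members, 5 reached 100 TPM in both, a line for which the share over all genes was not computed. The median of the 9 mean levels was 158 TPM, beside 16.9 TPM over the protein-coding genes at 1 TPM or more in both libraries. Apoe was highest by far, Plin2 came next, Mylip was lowest, and the other 6 lay between 51.9 and 178 TPM.

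**Figure D1:**
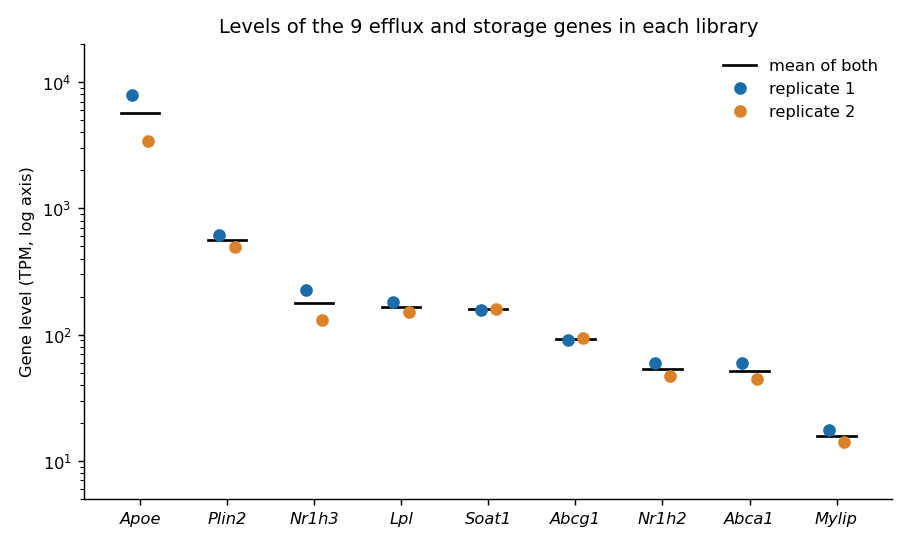
Gene level in TPM on a log axis for the 9 genes, with a point for each library and a bar at the mean of both. The libraries lie close together for Soat1 and Abcg1 and furthest apart for Apoe, at 7830 TPM in replicate 1 and at 3436 TPM in replicate 2.

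The exporters come first. Abca1 (ENSMUSG00000015243.4, chr4:53030787-53159895 on mm10, minus strand), the transporter that loads cholesterol and phospholipid onto lipid-poor apolipoproteins, stood at 59.5 TPM in replicate 1 and at 44.2 TPM in replicate 2, on 21454 and 14643 counts. Its mean was 51.9 ± 10.9 TPM (SD, n = 2). Abcg1 (ENSMUSG00000024030.7, chr17:31057675-31117988, plus strand), which passes cholesterol on to mature high-density lipoprotein, stood at 91.2 and 93.1 TPM, with a mean of 92.2 ± 1.36 TPM. Abcg1 thus exceeded Abca1 in both libraries, 1.53-fold in replicate 1 and 2.11-fold in replicate 2. On the log2 scale of TPM plus 1, Abca1 over Abcg1 was -0.83 ± 0.32. Each exporter was made almost wholly of its long coding transcript: Abca1-201 (10262 nt, 50 exons) held 99.6% ± 0.618 of the transcript level of its gene and Abcg1-201 (5832 nt) held 96.9% ± 1.16.

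The Abca1 promoter is shown because its annotated start is that of Abca1-201, the transcript that carries nearly all Abca1 reads, and because it holds a known type of liver X receptor element. That element is a direct repeat of 2 short sites set 4 bases apart, a DR4. The window is the RefSeq sequence on GRCm38.p6 at chr4:53159846-53160145, minus strand, from 250 bases before to 50 bases after the start. Capitals mark, in order, the E-box CACGTG, 147 bases before the start, and a DR4 on the opposite strand, 67 bases before it.
Abca1: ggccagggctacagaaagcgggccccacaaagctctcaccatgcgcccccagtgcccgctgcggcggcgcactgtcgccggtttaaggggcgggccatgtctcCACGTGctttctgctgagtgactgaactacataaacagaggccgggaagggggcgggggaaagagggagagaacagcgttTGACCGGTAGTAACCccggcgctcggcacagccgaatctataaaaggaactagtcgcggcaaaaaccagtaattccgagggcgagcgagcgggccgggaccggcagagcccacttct
The DR4 was searched as GGTTA and GGTCA with 5 bases between them, a form written with the Abca1 sequence in view, and as the plain repeat of AGGTCA after a gap of 4 bases, on both strands. Windows of 7 members were in the RefSeq table, 10 windows in all. Only the Abca1 window held the first form, which is in 0.0487% of all 32851 windows, and no member's window held the plain repeat, which is in 0.0152%. CACGTG, which reads the same on both strands, stood in the windows of Abca1 and Plin2 and in 7.15% of all windows. The searched forms do not overlap the E-box, and a match is a run of letters, not shown to be bound here.

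Apoe (ENSMUSG00000002985.16, chr7:19696109-19699188, minus strand), the lipid-carrying apolipoprotein that macrophages secrete and that accepts exported cholesterol, was the most abundant member. It stood at 7830 TPM in replicate 1 and at 3436 TPM in replicate 2, on 175931 and 71165 counts, with a mean of 5633 ± 3107 TPM. By its mean it ranked 19 of the 55536 genes. After TMM scaling its log2 ratio of replicate 2 over replicate 1 was -1.19, a 2.28-fold difference, and no further library shows which of the levels is usual.

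The Apoe reads were spread over several of 11 annotated transcripts, and the leading one is not annotated as coding. Apoe-202, a processed transcript of 728 nt, held 66.5% of the summed Apoe transcript level in replicate 1 and 72.4% in replicate 2. In the second quantification, made directly from the reads, it also led, with 67.7% ± 5.32. By expected counts, which do not correct for length, Apoe-202 took 49.6% and 54.2% of Apoe reads, so its lead in TPM partly follows from its shorter length. The 6 transcripts with complete coding sequences, the main ones of 933 nt, together held 33.3% and 27.1% of the transcript level, and 50.2% and 45.4% of the counts.

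The coding difference of Apoe-202 lies in a stretch of 386 bases, chr7:19696338-19696723, that Apoe-201, Apoe-206 and Apoe-209 keep inside their last exon and Apoe-202 lacks. It covers 341 coding bases at the 3′ end, or 36.5% of the coding sequence. The bases on either side are shown from the GENCODE M21 transcripts, 5′ to 3′ on the Apoe strand, with the first and the last 2 bases of the stretch in capitals. The last line is the join as Apoe-202 has it.
Donor side: ctctggtggagcaagGTcgccagcgcactg
Acceptor side: tccatatccagccAGgtggccctgtctcaa
Apoe-202: ctctggtggagcaaggtggccctgtctcaa
The stretch begins with GT and ends with AG, the bases found at the ends of most introns. Reads that lie outside the stretch are shared with the coding transcripts, and read positions were not analysed here, so how many reads cross the join was not measured.

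The difference between the libraries was not even across Apoe transcripts. Apoe-209, which starts at a first exon of its own and codes for the full protein, was at 1692 TPM in replicate 1 and at 230 TPM in replicate 2, a 7.35-fold difference. Apoe-202 was at 5205 and 2488 TPM, or 2.09-fold apart. Apoe-206, with the longest first exon, was at 831 and 633 TPM, or 1.31-fold apart, and Apoe-201 at 73.2 and 59.0 TPM. In the second quantification Apoe-209 held 18.8% of Apoe in replicate 1 and 8.99% in replicate 2, so its share was lower in replicate 2 in both quantifications. These transcripts share much of their sequence, and their split is an estimate of the quantifier.

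**Figure D2:**
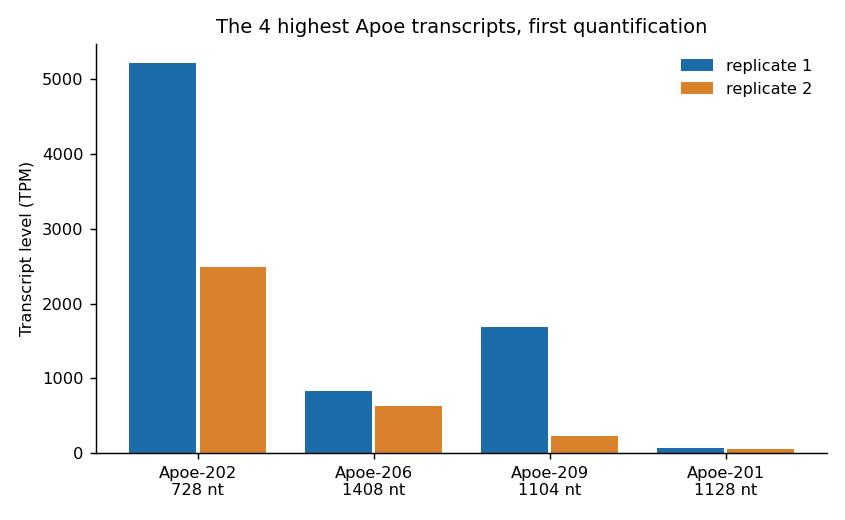
Transcript level in TPM for the 4 highest Apoe transcripts in the first quantification, with a bar for each library. Apoe-202 leads in both libraries, and of these 4 Apoe-209 shows the largest fold between libraries, 7.35, at 1692 TPM in replicate 1 and at 230 TPM in replicate 2.

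The liver X receptors were both expressed, with the alpha form ahead. Nr1h3 (ENSMUSG00000002108.10, chr2:91184061-91202834, minus strand), which encodes LXR alpha, stood at 226 TPM in replicate 1 and at 130 TPM in replicate 2, with a mean of 178 ± 68.2 TPM. Nr1h2 (ENSMUSG00000060601.13, chr7:44549616-44553951, minus strand), which encodes the more widely expressed LXR beta, stood at 59.3 and 46.6 TPM, with a mean of 53.0 ± 8.93 TPM. Nr1h3 exceeded Nr1h2 3.82-fold in replicate 1 and 2.78-fold in replicate 2, and the ranges of the receptors did not overlap. Nr1h2 over Nr1h3 was -1.69 ± 0.32 on the log2 scale of TPM plus 1.

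By transcript level, nearly all Nr1h3 RNA could make the full receptor, while Nr1h2 RNA was more divided. Nr1h3-201, Nr1h3-202 and Nr1h3-204 share a coding sequence of 1335 nt and differ in their first exons. Together they held 94.5% ± 1.28 of Nr1h3, with Nr1h3-201 leading at 62.0% ± 2.02. Nr1h3-203, which codes for a shorter form of 1155 nt, held 1.01% ± 0.691. Of the 18 Nr1h2 transcripts, those with complete coding sequences held 74.3% in replicate 1 and 82.7% in replicate 2. The 7 retained-intron transcripts held 7.59% and 4.80%. By expected counts the genes were closer, with complete coding shares of 89.9% and 93.7% for Nr1h2 and 95.2% and 95.8% for Nr1h3. Nr1h2-215, an incomplete entry of 411 nt, held 9.11% and 7.33% of the level on 1.01% and 0.772% of the counts.

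The complete Nr1h2 transcripts fall into a form that keeps 9 bases, or 3 codons, at the start of an exon (chr7:44552237-44552245) and a form that skips them. The longer form, of 1338 coding nt, is made up of Nr1h2-201, Nr1h2-204 and Nr1h2-213. It held 43.0% ± 2.14 of the gene. The shorter form, of 1329 coding nt, is made up of Nr1h2-202 and Nr1h2-203 and held 35.6% ± 3.83. The longer form was at 41.4% and 44.5% in replicates 1 and 2, and the shorter at 32.9% and 38.3%. The site is shown from the GENCODE M21 transcripts on the Nr1h2 strand, with the 9 bases in capitals.
Nr1h2-201: tacatcgtggTCATCTTAGagccagagga
Nr1h2-203: tacatcgtggagccagagga

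Mylip (ENSMUSG00000038175.10, chr13:45389742-45412022, plus strand), the ubiquitin ligase also called Idol that limits lipoprotein uptake, was the least abundant member, at 17.6 TPM in replicate 1 and at 14 TPM in replicate 2. Its mean was 15.8 ± 2.53 TPM, and Mylip-201 held 98.7% ± 0.39 of it. Of the lipoprotein receptors that the ligase marks for breakdown, Vldlr was at 0.01 TPM in each library and Lrp8 at 0.46 and 0.58 TPM, both below Mylip.

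Lpl (ENSMUSG00000015568.16, chr8:68880491-68907448, plus strand), the secreted lipase that frees fatty acids from triglyceride-rich lipoproteins, stood at 182 TPM in replicate 1 and at 151 TPM in replicate 2, with a mean of 166 ± 21.5 TPM. Lpl-201 held 99.3% ± 0.112 of it. The secreted inhibitor Angptl4 had 5 and 2 counts, and Gpihbp1, the endothelial anchor of the lipase, had 0 counts in both libraries, so up to 3 counts, or 0.0594 and 0.0647 CPM (counts scaled to library size), could have been missed. The lipase maturation factors Lmf1 and Lmf2 were at 8.10 and 12.2 TPM in replicate 1 and 6.61 and 12.3 TPM in replicate 2.

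Of the storage genes, Plin2 was highest. Plin2 (ENSMUSG00000028494.12, chr4:86648386-86670060, minus strand), which coats lipid droplets, stood at 619 TPM in replicate 1 and at 495 TPM in replicate 2, with a mean of 557 ± 87.8 TPM. It exceeded Plin3, a related coat protein at 17.5 and 17.8 TPM, 35.3-fold in replicate 1 and 27.8-fold in replicate 2. Plin1 had 0 counts in both libraries, Plin4 had 1 and 2 counts and Plin5 had 1 and 0. Plin2 and Plin3 were therefore the only perilipins of the 5 at 10 TPM or more in both libraries. Plin2-201, its single complete coding transcript, held 74.7% ± 3.39 of the level and 92.7% and 90.8% of the counts. The rest was mostly Plin2-207, an incomplete coding entry of 730 nt, at 16.7% ± 1.71, and Plin2-208, at 7.26% ± 1.1.

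Soat1 (ENSMUSG00000026600.12, chr1:156424525-156474331, minus strand), the enzyme that esterifies cholesterol in macrophages, stood at 156 TPM in replicate 1 and at 161 TPM in replicate 2, with a mean of 158 ± 3.35 TPM. Soat2, the form of liver and gut, was at 0.89 and 1.22 TPM. Nceh1, which hydrolyses the esters again, was at 51.9 and 64.7 TPM, so Soat1 exceeded it 3.01-fold and 2.49-fold. Soat1-201 (2925 nt) held 62.8% ± 5.34 of the level. Soat1-207 has the same 1620-nt coding sequence in 8371 nt, and it held 6.41% ± 0.849 of the level but 25.7% and 20.2% of the counts. Soat1-206, an incomplete entry of 366 nt, held 27.6% and 20.1% of the level on 1.47% and 1.04% of the counts. Here a short length turns few reads into a large share. The Soat1 level, and so its folds over Nceh1, includes 43.0 TPM of Soat1-206 in replicate 1 and 32.4 TPM in replicate 2.

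Across the 9 genes, the second quantification named the same leading transcript for all 9. The leading transcript held 60% or more in both libraries in 7 of the 9, the exceptions being Soat1 and Nr1h2, and it was annotated as coding in all but Apoe.

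**Figure D3:**
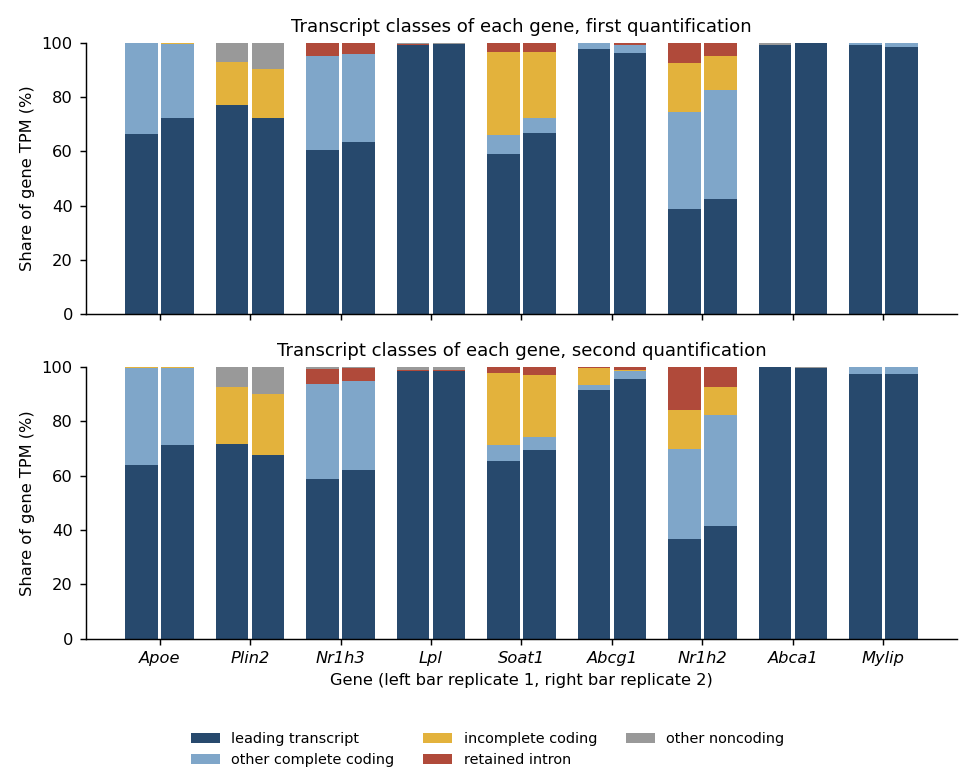
Share of each gene's summed transcript TPM, in percent, by transcript class, with the left bar for replicate 1 and the right bar for replicate 2, in the first quantification above and the second below. The leading transcript fills nearly the whole bar for Abca1, Lpl and Mylip, it is the noncoding Apoe-202 for Apoe, and incomplete entries take a visible part of Plin2, Soat1 and Nr1h2.

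In the order of levels, 5 of the 8 pairs of neighbours had ranges that did not overlap. Apoe exceeded Plin2 10.1-fold by the means, Plin2 exceeded Nr1h3 3.13-fold, Soat1 exceeded Abcg1 1.72-fold, Abcg1 exceeded Nr1h2 1.74-fold and Abca1 exceeded Mylip 3.28-fold. Nr1h3, Lpl and Soat1 overlapped along the order, as did Nr1h2 and Abca1, and these cannot be ranked. The last pair changed places in the second quantification.

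Most members had a lower level in replicate 2. In TPM this held for 7 of 9, with Abcg1 and Soat1 the other way. Counts were then scaled by TMM, which sets the typical gene to no difference, and all 9 members passed the filter on low counts. As a median, the ratio was -0.35 for the members on the log2 scale, beside 0.00035 over the 12543 genes tested, and 8 of 9 were below 0, beside 50.0% of all genes. Abcg1 was the nearest to 0, at -0.005, and turned to 0.006 without a filter on low counts and 0.03 in the second quantification. Only Apoe was 2-fold or more apart, where 4.21% of all genes were, 1.91% with the lower level in replicate 2. At 1.5-fold the members apart were Apoe and Nr1h3, at -0.81, both lower in replicate 2, where 13.2% of all genes were apart and 6.94% were lower. The remaining ratios were -0.43 for Abca1, -0.40 for Plin2, -0.35 for Mylip, -0.28 for Lpl, -0.26 for Nr1h2 and 0.10 for Soat1.

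The difference between 1 library and 1 other has no replicate check, so no p-value was computed. The biological coefficient of variation over all genes was 17.4%. The deposited credibility intervals of the gene TPM, whose level is not given in the sources used here, spanned 1.11% to 15.7% of the posterior mean. Those of the libraries overlapped for Soat1 and Abcg1 and for no other member. The share of all genes with overlapping intervals was not computed, so this count cannot be read as particular to the members. The neutrophil marker sum was also higher in replicate 1 and the endothelial one higher in replicate 2, as given above, and their part in these ratios was not tested. In bulk RNA, fewer cells of a type and less RNA per cell cannot be told apart.

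**Figure D4:**
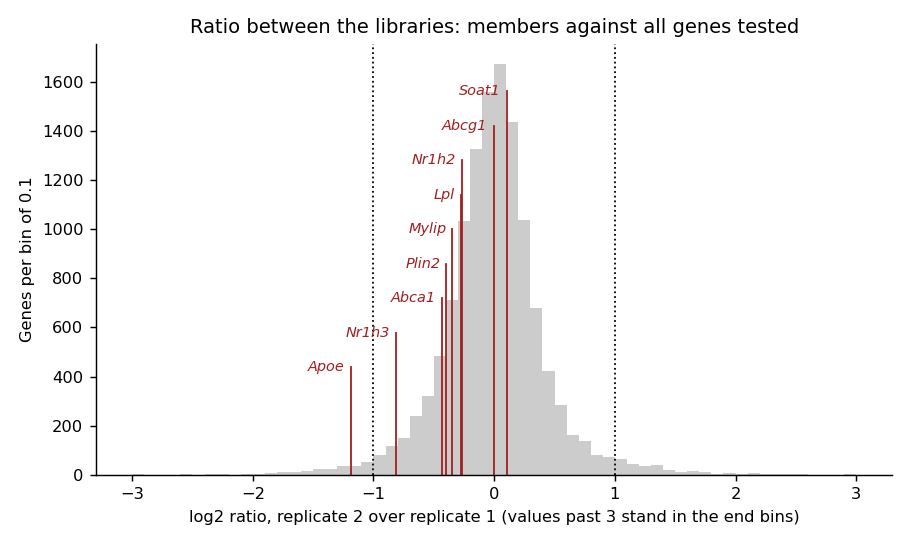
Histogram of the log2 ratio of replicate 2 over replicate 1 for 12543 genes, in bins of 0.1, with red lines at the 9 members and dotted lines at 2-fold. Apoe, at -1.19, is the one member past a dotted line, and Soat1, at 0.10, is the one clearly above 0.

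Of 108 other genes of lipid handling in 11 lists, 50 reached 10 TPM in both libraries, 37 stayed under 1 TPM in both and 19 had no count in either. Among 77 of them with a ratio, 5 were 2-fold or more apart.

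Receptor partners and coregulators were present at moderate levels, with 10 of 12 at 10 TPM or more and a median of 19.1 TPM. Ncor1, a corepressor of nuclear receptors, was highest at 60.4 TPM in replicate 1 and at 57.9 TPM in replicate 2. The heterodimer partners Rxra and Rxrb were at 17.4 and 13.6 TPM in replicate 1 and 13.0 and 14.8 TPM in replicate 2, and Rxrg had no count. Each partner was therefore below Nr1h3 and Nr1h2 in both libraries. Of the lipid-sensing PPARs, Pparg was at 4.84 and 3.30 TPM, Ppard at 2.97 and 3.17 TPM, and Ppara had no count.

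Among 15 other genes known as liver X receptor targets, 8 reached 10 TPM. Pltp, the phospholipid transfer protein, was highest, at 498 TPM in replicate 1 and at 266 TPM in replicate 2, with a log2 ratio of -0.86. Cd5l, a secreted macrophage protein, was at 261 and 161 TPM, with a ratio of -0.71. Of the 12 genes of the list with a ratio, Pltp and Cd5l included, 6 were below 0 and 6 above, with a median of 0.06. Srebf1, the lipogenic factor SREBP1, was at 23.1 and 27.3 TPM. Scd1, its desaturase target, was near the bottom, at 0.49 TPM in replicate 1 and at 2.65 TPM in replicate 2. The Scd1 ratio was 2.55 on 74 and 401 counts. Scd2, another desaturase of the list, was higher, at 39.0 and 52.9 TPM. The sterol exporters of liver and gut, Abcg5 and Abcg8, had no count.

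Enzymes that make or remove oxysterols were low, with 1 of 6, Hsd3b7, at 10 TPM or more, at 25.8 TPM in replicate 1 and at 24.9 TPM in replicate 2. Ch25h, which makes 25-hydroxycholesterol, was at 3.54 and 9.00 TPM, with a ratio of 1.34. Cyp27a1, which makes 27-hydroxycholesterol, was at 7.96 and 7.27 TPM. Cyp46a1 had no count.

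Uptake receptors were led by the scavenger receptor Msr1, at 418 TPM in replicate 1 and at 692 TPM in replicate 2. Its counts ran the other way, at 31204 and 27176, with a log2 ratio of -0.08, so its TPM and counts disagree on direction. Cd36, a receptor for fatty acids and oxidised lipoproteins, was at 127 and 39.5 TPM, with a ratio of -1.68 on 11199 and 3217 counts. Of the 9 genes in this list, 6 reached 10 TPM.

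Inside the cell, 9 of 10 genes of lysosomal and intracellular cholesterol transfer reached 10 TPM, with a median of 54.7 TPM. Npc2, which hands cholesterol to Npc1 in the lysosome, was highest at 817 and 969 TPM, and Npc1 was at 70.7 and 78.1 TPM, above Abca1 in both libraries. Lipa, the lysosomal acid lipase, was at 226 and 220 TPM, and Gramd1c was lowest at 0.11 and 0.15 TPM. Other transporters and acceptors were mostly low, with 2 of 10 at 10 TPM or more and a median of 0.62 TPM. Scarb2 was highest, at 61.8 and 57.0 TPM, and Apoa1, the main protein of high-density lipoprotein, had no count.

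Ester and triglyceride synthesis was led by Acsl1, which activates fatty acids, at 148 TPM in replicate 1 and at 204 TPM in replicate 2, and 3 of its 11 genes reached 10 TPM. The triglyceride enzyme Dgat1 was at 8.50 and 7.17 TPM and Dgat2 at 0.34 and 0.57 TPM. In ester hydrolysis, 5 of 10 reached 10 TPM with Nceh1 highest, and Pnpla2, the droplet triglyceride lipase, was at 30.8 and 28.1 TPM. In the other droplet genes, 3 of 11 reached 10 TPM, led by Rab18 at 98.2 and 110 TPM. The lipase cofactor list had 3 of 11 at that level, led by Sel1l, a chaperone of the endoplasmic reticulum, at 49.6 and 78.2 TPM. Its Lipg, the endothelial lipase, was at 14.1 TPM in replicate 1 and at 54.0 TPM in replicate 2, with a ratio of 1.92 on 1800 and 6298 counts. Kdr and Vwf of the endothelial markers were also higher in replicate 2, at ratios of 1.91 and 1.54, and Cdh5 was lower. The part of these markers in the Lipg value was not tested.

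**Figure D5:**
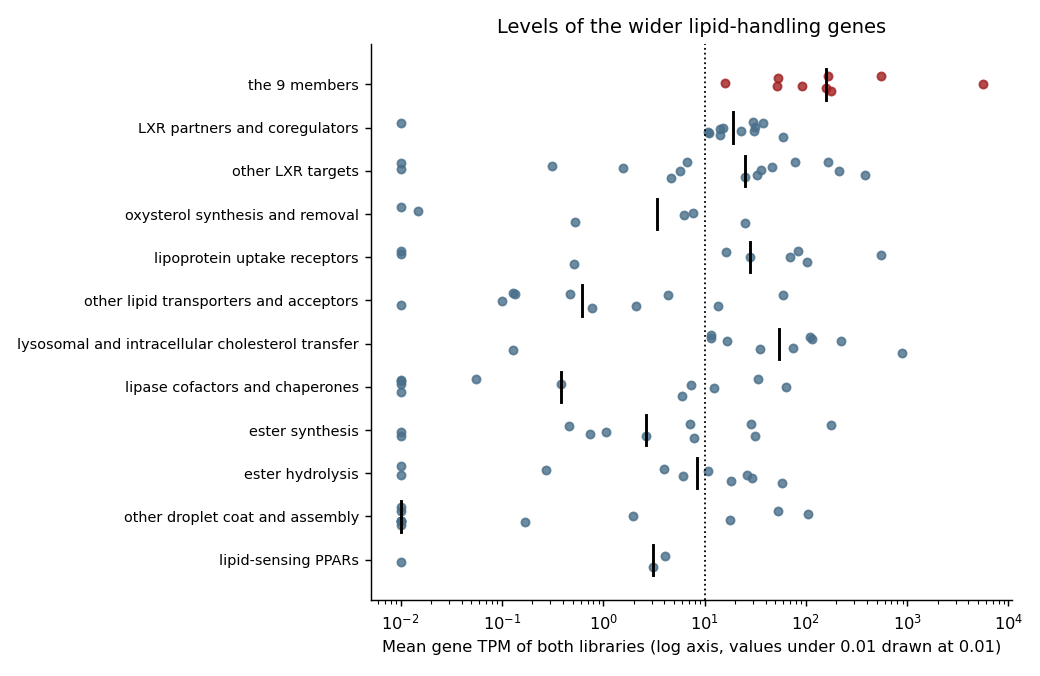
Mean gene TPM of both libraries on a log axis for the 9 members, in red, and 11 lists of other lipid-handling genes, in blue, with a black tick at each list's median and a dotted line at 10 TPM. The 9 members lie right of the line, while the medians of the lists run from under 1 TPM for other transporters, lipase cofactors and droplet genes to 54.7 TPM for cholesterol transfer.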

How the data were processed

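The authors deposited, per library, gene and transcript tables of expected counts, TPM and FPKM, derived from a transcriptome alignment on mm10 with GENCODE M21, and a second transcript table of estimated counts and TPM made from the reads, per the README deposited with each sample. The authors' transcript table also gives each transcript's percent share of its gene. Names of the aligner and quantifiers and the strand setting were not given in the sources used here. FPKM and deposited shares were not used. Gene names come from the second table, joined by gene ID.

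Levels are deposited gene TPM. Shares are transcript TPM over the sum for its gene. Expected counts were rounded, filtered with filterByExpr (intercept only), scaled with TMM in edgeR 4.0.16 and R 4.3.3, and turned into log2 CPM with a prior count of 0.5. Alternative size factors came from DESeq2 1.42.0. The calculation was tested on simulated data. Python 3.11.15, pandas 2.3.3, NumPy 2.4.6 and matplotlib 3.10.9 did the rest. Entries that name no gene took 0.0631% and 0.0676% of counts and were left out. The expected counts of all 9 members were whole to within 0.005, so none held a fractional read. Genes overlapping Nr1h3, Soat1 and Abcg1 stood at 0.7 TPM or less.

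Members and lists were chosen with earlier results of these data known. Named genes are the members, each list's highest and lowest gene (of several at 0, an example), genes 2-fold apart with mean counts from 100 up, and partners in fixed pairs. Further list genes, named for their role, were picked after their values were seen. No test was possible within 1 group of 2 libraries. Limits for a count of 0 cover counting error only. Some list genes are not reported here.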

Additional observations from a re-analysis of the deposited data

How the results depend on the processing

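Of the alternatives, all planned, none changed the sign of any of the 8 ratios between gene pairs. The single member 2-fold apart, Apoe, stayed so in all 5 alternatives, with log2 ratios from -1.19 to -1.15. Of all genes, 528 were 2-fold apart, while with no filter 5481 were and among genes with mean counts from 100 up 196 were, which follows from how many genes near 0 are tested. The share of those higher in replicate 2 was 54.7%, against 40.0% with no filter, 66.3% with mean counts from 100 up and 43.3% in the second quantification. Leaving out either replicate moved each of the 9 levels and 9 leading shares by less than 1 SD, as it must with 2 libraries. With replicate 1 or 2 left out, 8 and 7 members had a leading transcript at 60% or more. Values that moved by over 1 SD were 1 level and 4 shares in the second quantification, 2 levels over protein-coding genes alone and 2 pair ratios. Lpl over Angptl4 was 10.1 with a pseudocount of 0.1 TPM, and Soat1 over Soat2 was 7.11 with that pseudocount and 5.86 in the second quantification, against 7.30 and 6.28 on the log2 scale of TPM plus 1. No paired analysis was possible because there is 1 group. Neither the usual Apoe level nor the split of its overlapping transcripts can be settled at a depth of 2 libraries.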
